A study of Mus musculus with 10 samples.

Results

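The genes described here are 10 grouped as response genes of the Wnt, hedgehog and TGF-beta pathways: Axin2, Nkd1 and Lef1 for Wnt, Gli1, Gli2, Gli3 and Ptch1 for hedgehog, and Smad6, Smad7 and Skil for TGF-beta and BMP. Gli2 and Gli3 are factors that act on hedgehog targets, so a change in their RNA is not in itself a hedgehog response. They are 10 of 17097 genes measured in the epididymal fat pad, a visceral white fat depot beside the testis. For each gene the probe set was chosen by its mean signal over all 10 arrays, the highest being taken, among probe sets paired with that symbol alone. This choice used no genotype, so a gene's level is given as a description, and the differences between genotypes carry the test. The 10 genes themselves, and the lists of other pathway genes, were chosen with earlier results of these data known. Counts and shares over them are therefore descriptions. The series asks what the inflammasome does in obesity. Its 3 groups were wild-type (WT) mice (n = 4), ASC-/- mice, which lack the inflammasome adaptor encoded by Pycard and are also labelled ASC1 null (n = 3), and Casp1-/- mice, which lack caspase-1 (n = 3). All were males on a C57/Bl6 background, began a diet with 45 energy% of fat at 8 to 12 weeks of age and stayed on it for 16 weeks. No lean animals are among the samples, so every comparison is between obese mice. The labels do not say how the null alleles were made or whether the WT mice were littermates.

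Wnt ligands bind Frizzled and LRP receptors and stabilise beta-catenin, which then works with TCF and LEF factors on DNA. Canonical Wnt signalling is known to hold back the formation of fat cells, and Axin2 and Nkd1 are feedback inhibitors that the pathway induces in many tissues. Hedgehog ligands lift the block that Ptch1 places on Smo in the primary cilium, so that Gli factors activate targets, among them Gli1 and Ptch1 themselves. TGF-beta and BMP receptors phosphorylate Smad proteins. The inhibitory Smad6 and Smad7 and the corepressor Skil (SnoN) are part of the feedback that limits them.

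Signals are on the log2 scale throughout. Control probe sets meant to bind no mouse RNA had array medians of 2.91 to 3.15, with single values up to 5.01, and below that level the size of a difference is uncertain. The deleted genes followed their labels. Pycard was 3.40 ± 0.27 (SD, n = 3) in ASC-/- against 9.82 ± 0.62 (SD, n = 4) in WT, and Casp1 was 4.85 ± 0.14 (SD, n = 3) in Casp1-/- against 9.32 ± 0.55 (SD, n = 4). The 8 measured adipocyte markers were all above background, with array means of 11.50 to 12.54. WT replicate 1 stood apart from the other WT arrays. Its poly-A spike-in controls (mean 7.80) lay with the Casp1-/- arrays (7.51 to 8.07) and not with the other WT (5.76 to 6.50) or ASC-/- arrays (6.21 to 6.30), and it had the highest smooth muscle marker mean (9.94, with 8.57 on ASC-/- replicate 1 and 5.96 to 6.89 elsewhere). Casp1-/- arrays were therefore compared with all WT arrays and also with WT replicate 1 alone.

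Promoter windows from 250 bases before to 50 bases after a gene's start were read for 7 of the 10 genes (RefSeq, GRCm38.p6). None was read for Gli1, Skil or Smad7, so the promoter of Smad7, which also rose in Casp1-/- fat, is not described. Shown are those of Axin2 and Gli2, which rose together in Casp1-/- fat, and of Smad6, which holds the palindromic Smad site GTCTAGAC, in capitals. They are read 5′ to 3′ on the gene's strand, at chr11:108920099-108920398 (plus strand), chr1:119053570-119053869 (minus strand) and chr9:64022010-64022309 (minus strand).
Axin2: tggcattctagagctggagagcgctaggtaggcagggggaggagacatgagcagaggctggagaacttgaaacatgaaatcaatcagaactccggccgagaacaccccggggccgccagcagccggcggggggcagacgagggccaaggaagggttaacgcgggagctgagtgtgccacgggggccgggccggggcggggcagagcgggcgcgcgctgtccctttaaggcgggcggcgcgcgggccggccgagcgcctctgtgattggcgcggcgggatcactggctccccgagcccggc
Gli2: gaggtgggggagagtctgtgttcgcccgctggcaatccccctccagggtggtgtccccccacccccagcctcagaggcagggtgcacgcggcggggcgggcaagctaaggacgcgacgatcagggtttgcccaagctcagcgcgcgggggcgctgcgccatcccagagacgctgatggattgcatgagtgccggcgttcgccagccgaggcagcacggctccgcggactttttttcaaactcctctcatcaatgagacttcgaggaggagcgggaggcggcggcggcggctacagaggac
Smad6: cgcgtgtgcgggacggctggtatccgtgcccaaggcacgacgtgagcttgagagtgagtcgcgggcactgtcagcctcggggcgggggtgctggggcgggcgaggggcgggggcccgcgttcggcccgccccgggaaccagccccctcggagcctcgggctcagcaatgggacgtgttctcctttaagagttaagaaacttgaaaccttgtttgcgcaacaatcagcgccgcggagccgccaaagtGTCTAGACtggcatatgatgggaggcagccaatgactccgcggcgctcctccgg

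The windows were searched on both strands for 7 motifs. For TCF and LEF factors these were CTTTGAT, held by 3.73% of all 32817 windows, CTTTGAA, held by 5.14%, and CTTTGTT, held by 5.85%. For Gli factors they were GACCACCC, held by 0.808%, and CCACCCA, held by 9.31%, which can overlap it. For Smads they were GTCTAGAC, held by 0.213%, and CAGACA, held by 21.0%. GTCTAGAC lies across the start site of Smad6, from 4 bases before it. One of the 4 Lef1 windows held CAGACA, at 2 places, and the windows of Axin2, Nkd1, Gli2, Gli3 and Ptch1 held none of the 7. A match in such a window is a description of the letters and not of binding. The 3 windows printed were rich in G and C, at 70.0% for Axin2, 67.3% for Gli2 and 66.3% for Smad6, where the median over all windows was 52.7%.

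Among the Wnt response genes, Axin2, the scaffold of the complex that destroys beta-catenin, was higher in Casp1-/- fat. Its signal was 5.97, 6.50, 5.88 and 6.35 on WT replicates 1 to 4, 5.94, 6.07 and 6.25 on the ASC-/- arrays, and 7.59, 8.03 and 7.77 on the Casp1-/- arrays. The 3 Casp1-/- arrays thus lay more than 1 unit above every other array, while WT and ASC-/- arrays overlapped. Axin2 rose 3.08-fold in Casp1-/- against WT (log2 difference 1.62 ± 0.17 SE, limma adjusted p = 0.00515). This rests on 1 of its 2 probe sets. The other lay within background on all arrays (3.12 to 3.55) and differed by 0.03 ± 0.09 (SE), so the mean over both gave 0.83, still past the threshold.

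Nkd1, which binds Dishevelled and dampens the Wnt signal, was high on the same arrays but with more spread in WT. It measured 7.31, 7.60, 6.26 and 7.07 in WT, 6.96, 7.55 and 7.37 in ASC-/-, and 8.27, 7.90 and 8.09 in Casp1-/-. The Casp1-/- arrays lay above all others, WT replicate 3 was the lowest, and the difference of 1.03 ± 0.28 (SE) just missed the threshold (adjusted p = 0.0552). It passed without WT replicate 1 (1.11, adjusted p = 0.0415), without WT replicate 2 (1.21, adjusted p = 0.0367) and with dim genes left out (adjusted p = 0.0396). It was 0.48 with the mean over probe sets (adjusted p = 0.0895) and 0.76 without WT replicate 3 (adjusted p = 0.0503), and the adjusted p was 0.16 without Casp1-/- replicate 1. The next brightest Nkd1 probe set differed by 0.63 ± 0.22 (SE), with values of 6.28 to 6.38 in Casp1-/- and 5.23 to 6.30 in WT, which overlap. Lef1, a DNA-binding partner of beta-catenin that T cells also express, lay within background on every array (3.03 to 3.53), so nothing can be said of its change. The WT means of 12 of 13 T and NK cell markers were also within background.

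Of the hedgehog response genes, Gli2, the main activator among the Gli factors, was higher in Casp1-/- fat. It measured 4.91, 4.99, 5.17 and 5.27 in WT, 5.20, 5.13 and 5.36 in ASC-/-, and 6.28, 6.84 and 6.47 in Casp1-/-. The Casp1-/- arrays stood clear of the others, and the WT arrays lay at the upper edge of background, so the 2.73-fold rise is uncertain in size (1.45 ± 0.14 SE, limma adjusted p = 0.00417). The second Gli2 probe set moved the same way, from 4.21 to 4.52 in WT and 4.20 to 4.62 in ASC-/- to 5.15 to 5.84 in Casp1-/- (1.05 ± 0.17 SE, limma adjusted p = 0.0140 over all probe sets with 1 symbol).

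Of the other Gli genes, Gli3, mainly a repressor, was above background on all arrays and spanned 5.44 to 6.09 over all arrays, with a difference of -0.02 ± 0.15 in Casp1-/- (95% confidence interval -0.36 to 0.32). Gli1, a target that reports active signalling, was within background everywhere (3.31 to 3.89). Ptch1, the receptor that is also a target, measured 8.58, 8.65, 7.59 and 7.95 in WT, 7.91, 8.23 and 8.41 in ASC-/-, and 8.75, 8.81 and 8.98 in Casp1-/-. Its Casp1-/- arrays were the highest 3 but lay close to WT replicates 1 and 2, and the difference of 0.65 ± 0.25 (SE) did not pass (adjusted p = 0.128). The second Ptch1 probe set was within background (3.44 to 3.99).

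In the TGF-beta group Smad7, which blocks the TGF-beta receptors, was higher in Casp1-/- fat. Its only probe set measured 5.51, 5.84, 5.62 and 5.80 in WT, 5.62, 5.77 and 6.12 in ASC-/-, and 6.99, 7.32 and 7.14 in Casp1-/-. No array of another genotype reached the Casp1-/- values. The rise was 2.75-fold (1.46 ± 0.14 SE, limma adjusted p = 0.00403). Smad6, which acts mainly on BMP signals, measured 7.64, 7.74, 6.75 and 7.30 in WT, 7.15, 7.83 and 7.55 in ASC-/-, and 7.76, 7.96 and 8.00 in Casp1-/-. ASC-/- replicate 2 exceeded the lowest Casp1-/- array, and the difference from WT of 0.55 ± 0.24 (SE) did not pass (adjusted p = 0.174). Skil, the corepressor, measured 8.96, 9.45, 9.48 and 9.20 in WT, 9.18, 9.44 and 9.52 in ASC-/-, and 9.45, 9.66 and 9.63 in Casp1-/-, so the groups overlapped (0.30 ± 0.14 SE, adjusted p = 0.199).

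**Figure D1:**
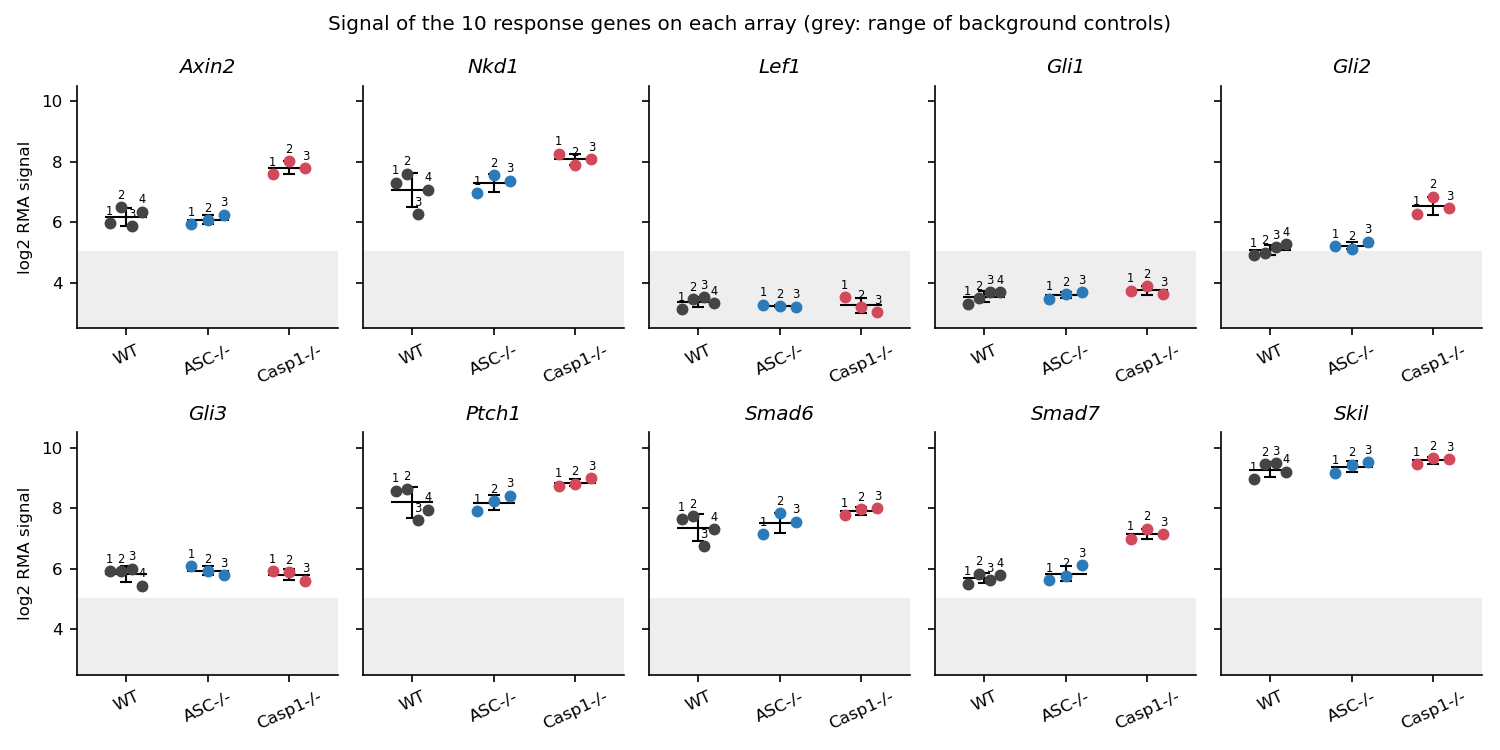
Log2 signal (vertical axis) of each of the 10 response genes on every array, by genotype; small numbers are replicates, the bar and whiskers the mean and SD, and grey the range of background controls up to 5.01. Casp1-/- arrays (red) stand clear of the WT and ASC-/- arrays for Axin2, Gli2 and Smad7, and all points of Lef1 and Gli1 lie in the grey range.

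Together 3 of the 10 genes rose in Casp1-/- fat and 0 fell, 30% against 8.17% of all genes past the threshold in either direction and 4.31% past it upwards. The share is a description, since the 10 genes were chosen with earlier results of these data known. The median difference of the 10 was 0.60, against 0.041 over all genes. Of the 10, 8 were above 0, among them Gli1 within background, where 57.3% of all genes were above 0. For 6 of the 10 (Axin2, Nkd1, Gli2, Ptch1, Smad6 and Smad7) every Casp1-/- array lay above every WT array, as it did for 15.1% of all genes. Axin2 and Smad7 kept their side of the threshold without any single array and under every other setting tried. Gli2 missed it only with the replicate number as a block (1.51, adjusted p = 0.0558).

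Against WT replicate 1 alone the same 3 genes passed, out of 120 genes in all. Axin2 was 1.83 ± 0.25 (SE), Gli2 1.62 ± 0.21 (SE) and Smad7 1.64 ± 0.20 (SE) higher in Casp1-/-, with limma adjusted p = 0.0214, 0.0163 and 0.0137. All 3 differences were a little larger than against the 4 WT arrays. Of all genes 0.702% passed this comparison, and 0.17% passed it upwards. It rests on 1 WT array, which is assumed to vary like the arrays of the other groups. Without Casp1-/- replicate 3 none of the 3 passed (adjusted p = 0.0724 for Axin2, 0.0533 for Gli2 and 0.0504 for Smad7). With the mean over probe sets only Smad7 passed (adjusted p = 0.063 for Axin2 and 0.0524 for Gli2).

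The remaining genes split in this comparison. Nkd1 (0.78 ± 0.43 SE), Ptch1 (0.26 ± 0.35 SE) and Smad6 (0.26 ± 0.36 SE) lay nearer to WT replicate 1 than to the mean of all WT arrays. Skil (0.62 ± 0.17 SE, adjusted p = 0.174) lay further from it, since WT replicate 1 had the lowest Skil signal of all arrays. None of these 4 passed. The values for Gli3 (-0.12 ± 0.23 SE), Gli1 and Lef1 did not pass either, and the last pair was within background.

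**Figure D2:**
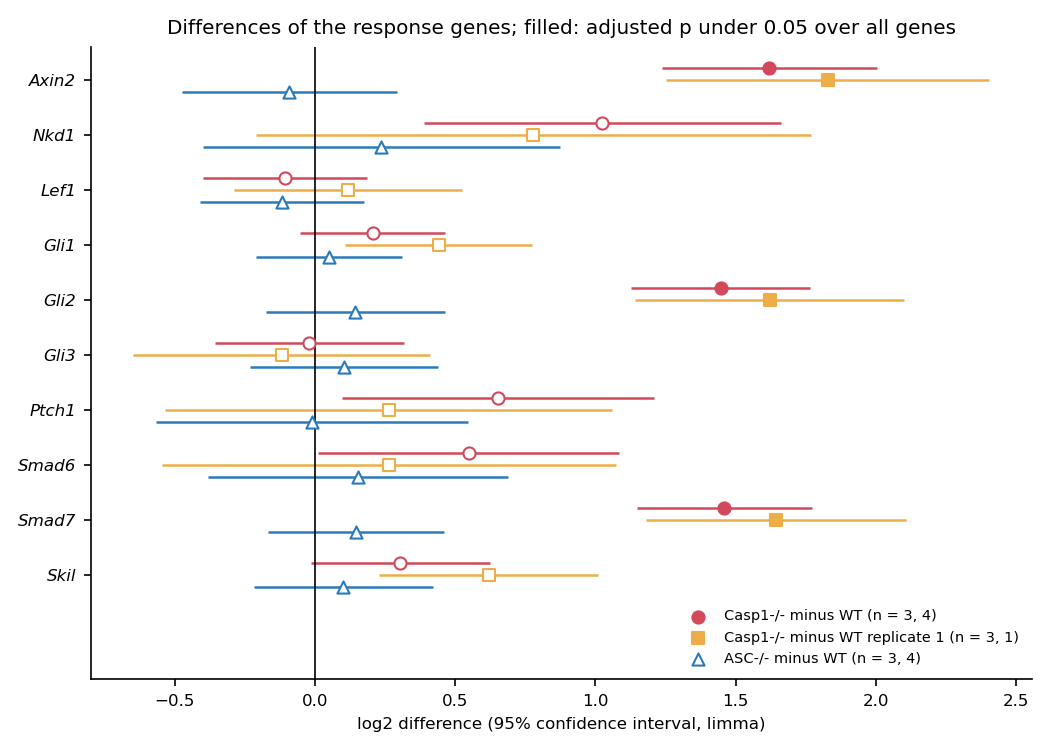
Log2 differences (horizontal axis) with 95% confidence intervals for Casp1-/- minus WT, Casp1-/- minus WT replicate 1 and ASC-/- minus WT; filled symbols passed an adjusted p of 0.05 over all genes. Axin2, Gli2 and Smad7 are filled in both Casp1-/- comparisons, and every ASC-/- interval includes 0.

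Loss of ASC left no called difference in the 10 genes. In ASC-/- minus WT by limma 0 of 10 passed, 0 had an unadjusted p under 0.05, and differences ranged from -0.12 to 0.24, while 0.0351% of all genes passed. The 95% confidence intervals were -0.47 to 0.29 for Axin2, -0.18 to 0.46 for Gli2 and -0.17 to 0.46 for Smad7, all below the rises in Casp1-/-. Wider intervals for Nkd1 (-0.40 to 0.87), Ptch1 (-0.57 to 0.55) and Smad6 (-0.38 to 0.69) leave room for changes of up to 0.87 on the log2 scale.

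The null genotypes were also compared directly. ASC-/- was lower than Casp1-/- by 1.71 ± 0.18 (SE) for Axin2, 1.30 ± 0.15 (SE) for Gli2 and 1.31 ± 0.15 (SE) for Smad7, with limma adjusted p = 0.00465, 0.00629 and 0.00592. These were 3 of the 10 genes, where 7.39% of all genes passed in either direction and 3.54% downwards. The Casp1-/- arrays serve both this comparison and that with WT. All 3 differences kept their side of the threshold when any single array was left out. With the spike-in set as a block, or the replicate number, Gli2 alone of them missed it (-1.54 and -1.30, adjusted p = 0.0643 and 0.0538).

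Among markers of cell types, those of macrophages set the Casp1-/- arrays apart from WT most clearly. Averaged over 15 macrophage markers, the signal came to 9.74, 10.15, 11.09 and 10.69 on WT replicates 1 to 4, to 10.77, 10.45 and 10.33 on the ASC-/- arrays, and to 9.18, 8.92 and 9.23 on the Casp1-/- arrays, below all others. In Casp1-/- against WT 10 of the 15 fell and 0 rose, and against WT replicate 1 alone 0 passed by limma, with a median of -0.68. In whole tissue fewer cells of a type and less RNA per cell cannot be told apart. The 8 adipocyte markers averaged 12.45 to 12.54 in Casp1-/- and 11.50 to 12.22 in WT, and 1 of them rose. The 11 progenitor and fibroblast markers overlapped (8.38 to 8.52 against 8.38 to 8.80). Endothelial markers were 7.93, 8.22 and 8.72 in Casp1-/- and 7.56 to 8.06 in WT, and mesothelial markers 7.42, 8.04 and 6.59 against 6.21 to 7.09. None of the progenitor, endothelial or mesothelial markers passed.

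Within WT, taken in the order of the macrophage mean (replicates 1, 2, 4 and 3, at 9.74, 10.15, 10.69 and 11.09), Axin2 was 5.97, 6.50, 6.35 and 5.88. In the same order Gli2 was 4.91, 4.99, 5.27 and 5.17, and Smad7 was 5.51, 5.84, 5.80 and 5.62. Nkd1 (7.31 and 6.26), Ptch1 (8.58 and 7.59), Smad6 (7.64 and 6.75) and, by less, Axin2 (5.97 and 5.88) were lower on replicate 3 than on replicate 1. Gli2 (4.91 and 5.17) and Smad7 (5.51 and 5.62) were higher on replicate 3. Replicate 3 had the highest macrophage mean and also the lowest adipocyte (11.50, with 12.06 to 12.22 on the other WT arrays), mesothelial (6.21) and epididymis (3.59) marker means of the WT arrays. Casp1-/- replicate 3 had a mesothelial mean (6.59) below that of WT replicates 1 and 2 (7.06 and 7.09). Its Axin2, Gli2 and Smad7 were 7.77, 6.47 and 7.14. Casp1-/- replicate 2 had the highest mesothelial (8.04) and epididymis (5.73) means of all arrays. Its Axin2, Gli2 and Smad7 (8.03, 6.84 and 7.32) were also the highest of all arrays. Actin 3' minus 5' signal, which rises as RNA shortens, was 0.82 to 0.98 in Casp1-/-, 0.46 to 1.05 in WT and 0.54 to 0.67 in ASC-/-. With it as a covariate the rises were 1.63 for Axin2, 1.54 for Gli2 and 1.49 for Smad7, all past the threshold. The part of cell composition in these rises was not tested.

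**Figure D3:**
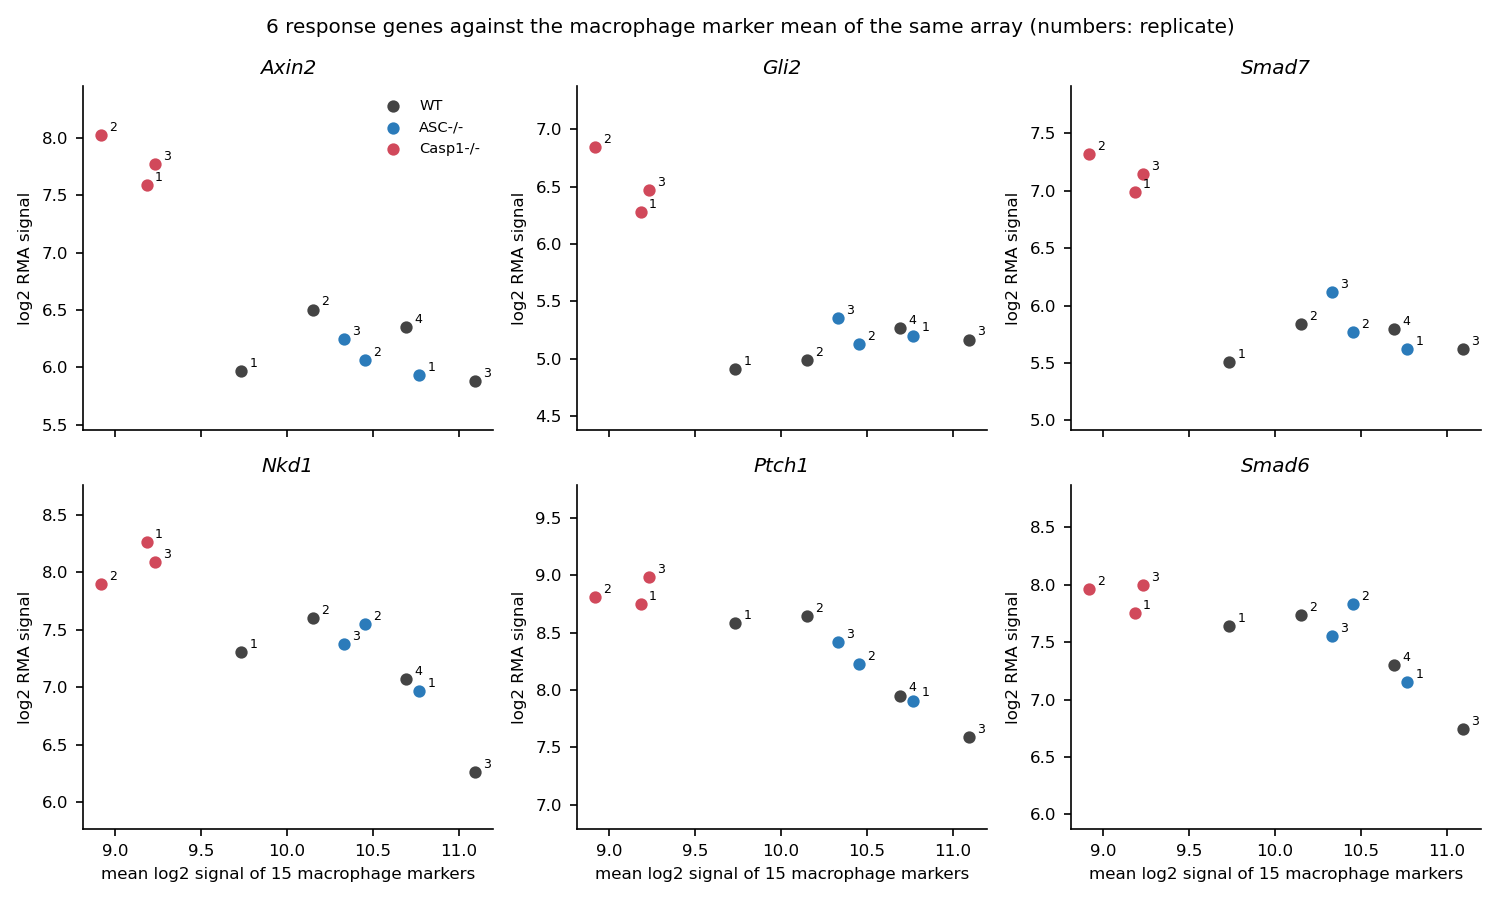
Log2 signal of 6 response genes (vertical axes, each spanning 3 units) against the mean log2 signal of 15 macrophage markers on the same array; small numbers are replicates. Among WT and ASC-/- arrays Ptch1, Nkd1, Smad6 and Axin2 are lowest on WT replicate 3 (11.09). Over the WT and ASC-/- arrays Axin2 spans 5.88 to 6.50, Gli2 4.91 to 5.36 and Smad7 5.51 to 6.12, all below their Casp1-/- arrays.

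Other genes of the 3 pathways were read from lists by role, 223 genes of which 204 were measured. In Casp1-/- against WT 21 rose and 7 fell, 13.7% of the 204 against 8.17% of all genes, and the median difference was 0.077 against 0.041. With single arrays left out the count of 28 varied widely, and in the fits given here the count over all genes (1397) moved in the same direction. It was 44 (3018 of all genes) without WT replicate 1 and 5 (346) without WT replicate 4. It was 14 (752) and 17 (918) without ASC-/- replicates 2 and 3, and 3 (308), 1 (64) and 3 (271) without Casp1-/- replicates 1 to 3. A fit of the compared groups only called 10 (469). Against WT replicate 1 alone 3 of the 204 passed, Tulp3, Rspo3 and Wif1, of which Rspo3 and Wif1 are not among the 28 (adjusted p = 0.81 and 0.159 against all WT arrays). In ASC-/- against WT 0 passed by limma and 7 of the 204 had an unadjusted p under 0.05, as did 342 of all 17097 genes.

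Hedgehog genes that changed in Casp1-/- all rose, 6 of 34 measured, or 17.6% against 8.17% of all genes called and 4.31% called higher. Smo, the receptor that relays the signal, rose 1.84-fold to 8.71 ± 0.092 from 7.83 ± 0.30 (limma adjusted p = 0.0182), and Boc, a coreceptor of hedgehog ligands, 1.66-fold to 7.96 ± 0.098 from 7.22 ± 0.10 (limma adjusted p = 0.00966). Sufu, which restrains Gli factors, rose 1.75-fold to 7.94 ± 0.14 from 7.14 ± 0.39 (limma adjusted p = 0.0424). Evc2, a ciliary partner of Smo, rose 1.48-fold, and Ift88, a subunit of ciliary transport, 1.46-fold. None of Smo, Boc, Sufu, Evc2 and Ift88 passed against WT replicate 1 alone, where they were 1.55-, 1.56-, 1.47-, 1.40- and 1.51-fold higher. The median difference of the 34 genes in that comparison was 0.036, near the 0.029 over all genes. Tulp3, which carries receptors into the cilium, rose 1.99-fold to 7.26 ± 0.082 from 6.27 ± 0.065 (limma adjusted p = 0.00339) and also passed against WT replicate 1 (1.05 ± 0.13 SE, adjusted p = 0.0142). None of the 11 measured hedgehog targets outside the 10 genes passed, a number of genes too small to set against the 8.17%. An unadjusted limma p under 0.05 was found for 3 of them, and for 4723 of all 17097 genes.

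Wnt genes gave 6 rises and 1 fall among 91 measured, a share of 7.69% that is near the 8.17% of all genes. The noncanonical ligand Wnt11 rose 1.58-fold to 6.41 ± 0.055, and the ligand gene Wnt6 rose within background (3.69 ± 0.093 against 3.22 ± 0.14). The ligand gene Wnt5b also rose (4.95 ± 0.26 against 3.96 ± 0.43), with 1 array above background, Casp1-/- replicate 2 (5.24). Both inhibitors that rose act on Wnt receptors or ligands at the membrane: Apcdd1 rose 3.24-fold to 10.70 ± 0.064 (log2 difference 1.70 ± 0.42 SE, limma adjusted p = 0.0405), and Znrf3, a ubiquitin ligase that removes Frizzled, 1.56-fold (limma adjusted p = 0.0203). Prickle1, a planar polarity gene in the target list, rose 2.00-fold. Cd44, which macrophages and other leukocytes express, fell 3.12-fold. Against WT replicate 1 alone the differences of Apcdd1 and Cd44 were 2.07-fold and 1.79-fold and did not pass (limma adjusted p = 0.552 and 0.488). None of the 18 receptors or 19 transducers passed. Against WT replicate 1, Rspo3 (3.67 ± 0.25 against 6.01) and Wif1 (3.24 ± 0.20 against 5.18) were lower, and that array was the one with the highest smooth muscle marker mean (9.94); the part of that tissue was not tested.

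TGF-beta and BMP genes went both ways, with 9 rises and 6 falls among 79 measured, 19.0% called and 11.4% higher against 8.17% and 4.31% of all genes. Against WT replicate 1 alone these calls were not repeated, and the median difference of the 79 was 0.029, where that over all genes was also 0.029. Ligands split: Tgfb3 rose 1.71-fold to 7.78 ± 0.24, and Gdf11 rose within background (4.16 ± 0.083 against 3.87 ± 0.014), while Gdf3 (3.73 ± 0.28 against 6.37 ± 1.37) fell into background and Tgfb1 (4.95 ± 0.12 against 6.44 ± 0.82) fell to its upper edge, with Casp1-/- replicate 2 at 5.05. Among secreted inhibitors, Fstl3, which binds activins, rose 1.98-fold, and the BMP antagonists Chrdl1 and Chrd rose 1.73-fold and 1.55-fold. The nuclear corepressor Tgif1 fell 3.61-fold, and was 2.14-fold lower than WT replicate 1 alone. Gdf3 was 4.64, Tgfb1 5.28 and Col1a1 8.47 on that array, each closer to Casp1-/- than the mean of all WT arrays. Of 10 transducers Zfyve9, which anchors Smads at endosomes, rose 1.48-fold, and Smad3 1.28-fold. Of 20 target genes Bhlhe40 (1.75-fold) and Id3 (1.47-fold) rose, and Id2 (2.30-fold) and the collagen gene Col1a1 (2.10-fold) fell. Itgav, an integrin subunit that can free latent TGF-beta, fell 1.40-fold. Tgfb1, Gdf3, Tgif1 and Itgav were lower on the arrays with the lowest macrophage marker means (8.92 to 9.23), and the part of macrophages in these falls was not tested.

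**Figure D4:**
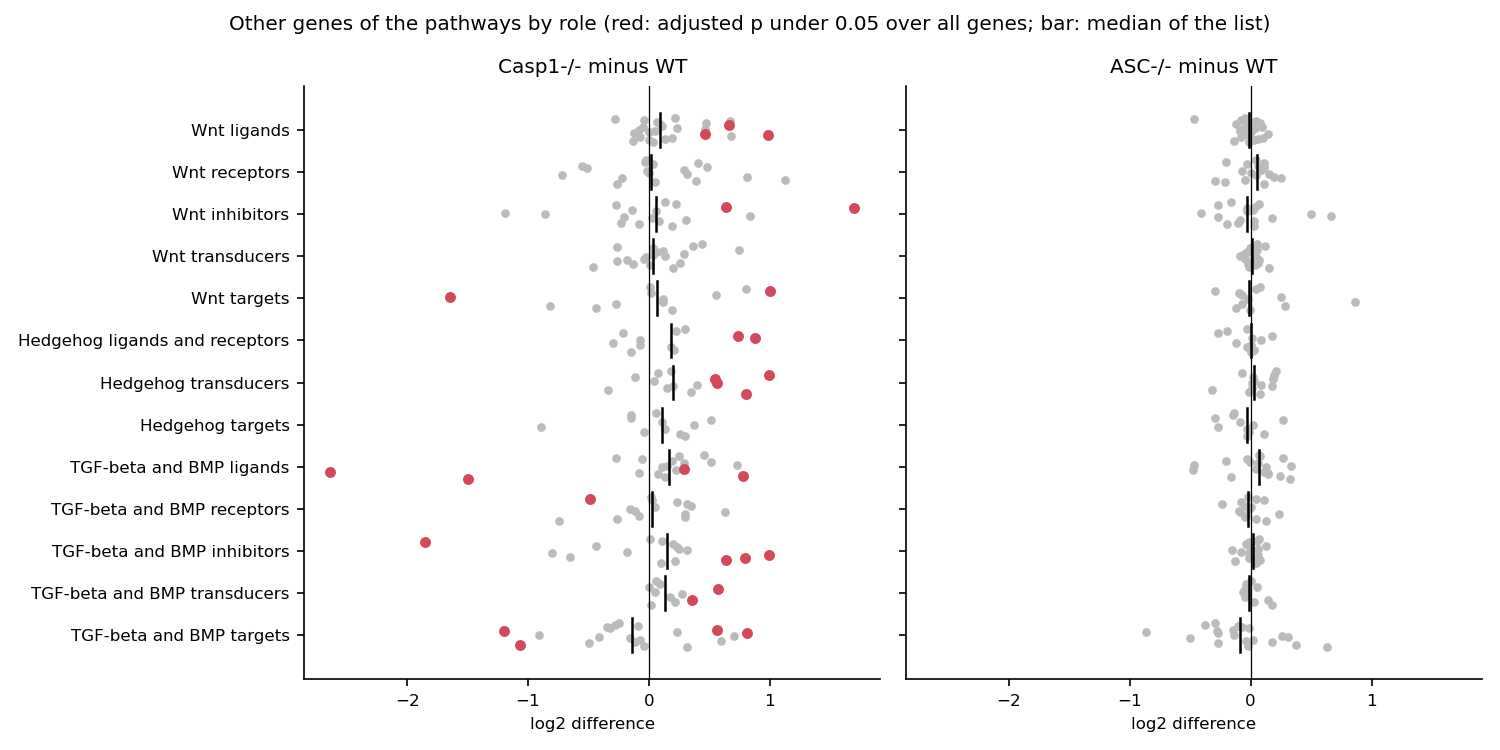
Log2 differences (horizontal axes, same scale) of 204 other pathway genes by role, for Casp1-/- minus WT and ASC-/- minus WT; red points passed an adjusted p of 0.05 over all genes, and bars are list medians. Hedgehog ligands, receptors and transducers have red points only on the right for Casp1-/-, TGF-beta and BMP genes have them on both sides, and ASC-/- has none.

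The genes whose pattern over the 10 arrays was most like that of the 3 that rose are given as a description, since arrays of a genotype share all their differences from the others, and no test was made. Axin2 was most like 2700081O15Rik (Pearson r = 0.992) and Zfp697 (0.991). Gli2 was most like Hs2st1, a heparan sulfate sulfotransferase (0.981), and Smad7 (0.979). Smad7 was most like Hs2st1 (0.985) and Smim1 (0.984). Axin2 and Smad7 had r = 0.981. Zfp697 measured 7.92 ± 0.26 in Casp1-/- against 6.77 ± 0.24 in WT and 6.75 ± 0.22 in ASC-/-, and Hs2st1 9.51 ± 0.11 against 8.84 ± 0.053 and 8.88 ± 0.080.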

How the data were processed

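Each sample's fat RNA was measured on 1 array of the Affymetrix type HT_MG-430 PM. The deposited values are log2 signals that the authors made with RMA, per the submitters' processing notes; no version or genome build is given in the sources used here. RMA gives all arrays one distribution and compresses differences near background. Of 45141 probe sets, 28898 had 1 gene symbol, 551 several and 15588 none, beside 104 controls; the brightest of each gene gave 17097 genes, with no filter. limma 3.58.1 in R 4.3.3 was fitted to all genes, with 1 mean per genotype over 10 arrays, or with WT replicate 1 as a group of its own. Tests were two-sided with Benjamini-Hochberg adjustment over all genes at 0.05, in the text "past the threshold". The fit was tested on simulated data. The 10 genes, the lists and the tests were chosen with earlier results of these data known. Named were the 10 genes, every listed pathway gene past the threshold in Casp1-/- or ASC-/- against WT or in Casp1-/- against WT replicate 1 (at most 6 a list), and the 2 genes most like each response gene that passed. The labels do not say that the samples are independent animals beyond RNA from 3 to 4 mice a group. The number of arrays limits the precision.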

Additional observations from a re-analysis of the deposited data

Results flagged for a closer look

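In 44 named genes the 4 WT arrays were searched for 1 array far from the rest by Dixon's test, which chance passes in about 1 in 20 groups, and 2 were found. Gli3 was 5.44 on WT replicate 4, where the other WT arrays had 5.92 to 6.01. Rspo3, which encodes a Wnt-enhancing R-spondin, was 6.01 on WT replicate 1 against 3.20 to 3.33 on the others. Rspo3 was among the named genes only through the comparison with WT replicate 1 alone, so the chance of about 1 in 20 does not hold for it.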

How the results depend on the processing

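Of 682 values of single response genes under other settings, 668 kept their direction and side of the threshold or stayed uncalled, 14 crossed the threshold and 0 called ones changed sign. Same-numbered arrays did not deviate together (correlations of deviations from -0.26 to 0.185, and not every array correlated best with its own number), so the numbers were not taken as pairs. With them as a replicate block, 2 response genes passed in Casp1-/- minus WT and in ASC-/- minus Casp1-/-, and 0 other pathway genes passed. The pathway count of 28 was 10 with only the compared groups and 3 with the spike-in set as a block, which for Casp1-/- is the same fit as the comparison with WT replicate 1, and ranged from 1 to 44 with 1 array left out. In ASC-/- minus Casp1-/-, 5 response genes passed with only the compared groups, with Nkd1 (-0.79) and Ptch1 (-0.66) added. Against WT replicate 1 alone, which response genes passed changed with the mean over probe sets and with 1 array left out. No replicate block was fitted there. Further settings were quantile normalization, dim genes left out, a trended and robust empirical Bayes step and the actin covariate. Lef1 and Gli1 lay within background, which limits what can be said of them.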
